A study of Danio rerio with 17 samples.

Results

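Toll-like receptor genes and the innate adaptor genes myd88 and tmem173 were followed across 5 cell populations picked from adult zebrafish epidermis. The members were the rows of the deposited tables whose zebrafish symbol was tlr1, tlr2, tlr3, tlr5b, tlr7, tlr9, tlr18, tlr21, myd88 or tmem173. These 10 symbols gave 11 of the 35117 gene identifiers, because tlr7 was the symbol of 2 identifiers (ENSDARG00000068812 and ENSDARG00000075685). The identifiers of the others were ENSDARG00000100649 for tlr1, ENSDARG00000037758 for tlr2, ENSDARG00000016065 for tlr3, ENSDARG00000052322 for tlr5b, ENSDARG00000044490 for tlr9, ENSDARG00000040249 for tlr18, ENSDARG00000058045 for tlr21, ENSDARG00000010169 for myd88 and ENSDARG00000091058 for tmem173.

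The study picked fluorescent cells by hand from adult epidermis, amplified their RNA with SMART-seq2, a method that copies full-length transcripts from little input, and sequenced 17 libraries. MLCs (4 libraries), described in the series' design as locally restricted cells positive for mpeg1, and cLCs (4 libraries) both came from fish carrying the transgenes hsp70:mCherry-T2a-CreERT2 and mpeg1:loxP-DsRedx-loxP-GFP. In that line the heat shock promoter hsp70 drives an inducible Cre recombinase and the macrophage promoter mpeg1 drives a reporter that changes colour after recombination. Keratinocytes (3 libraries) came from Tg(krt4:lyn-GFP) fish, neutrophils (3 libraries) from Tg(lyz:GFP) fish and T cells (3 libraries) from Tg(lck:DsRedx) fish. The lines therefore differ along with the cell types, except between MLCs and cLCs. The sources used here do not spell out MLC and cLC, and do not state the feature that separated these cells, any heat shock or drug given, or the number of cells in a library.

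Toll-like receptors are membrane proteins that bind conserved microbial molecules with a leucine-rich repeat domain outside the cytosol and signal through a TIR domain inside it. MyD88 is the adaptor that most of them recruit, which leads through IRAK kinases and TRAF6 to NF-kB and inflammatory cytokine genes. STING, the protein encoded by tmem173, sits in the endoplasmic reticulum and responds to the cyclic dinucleotide made by the DNA sensor cGAS, which leads to type I interferon genes. Fish carry most receptor types known from mammals and some that mammals lack, among them tlr18, tlr21 and tlr22. Skin macrophages and Langerhans cells are among the first cells to meet microbes at the body surface.

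The libraries held 5837662 to 24596883 counted reads and 4484 to 16921 genes with a count. Fewer than 6000 genes were detected in 4 libraries, namely cLCs replicates 3 and 4 and neutrophil replicates 2 and 3. Defining markers followed the labels: mpeg1.1 lay at 862 to 1628 CPM (reads of a gene relative to its library total after TMM adjustment) in MLCs and 3010 to 9898 CPM in cLCs, against 0 to 4.28 CPM in the other 9 libraries. The genes krt4, lyz and lck were each highest in their own reporter line. Of 10 keratinocyte markers, 9 had counts in MLCs, 7 in cLCs, 7 in T cells and 5 in neutrophils. They summed to 3100 to 7043 CPM in MLCs, against 4.40 to 129 CPM in cLCs and 32878 to 107900 CPM in keratinocytes. Of 11 macrophage markers, 10 had counts in MLCs and csf1ra was at 0. Counts were also found for 11 in cLCs, 10 in T cells, 6 in keratinocytes and 5 in neutrophils. The macrophage markers summed to 18752 to 48878 CPM in MLCs and 32054 to 176550 CPM in cLCs. They summed to 7797 to 8909 CPM in keratinocytes, 2157 to 3123 CPM in T cells and 516 to 769 CPM in neutrophils. Their median log2 fold change in MLCs against cLCs was -11.58 (-10.85 with genes at 0 set to their bound; 0.13 over all tested genes), with 4 called lower and 0 higher. The leukocyte gene ptprc reached at most 0.399 CPM in MLCs. The 6 T cell markers summed to 439 to 2344 CPM in cLCs and 1422 to 2247 CPM in T cells. In cLCs zap70 was at 0 and lck at 0 to 21.6 CPM, so most of that sum came from other listed genes. In T cells lck lay at 584 to 689 CPM. The part of these other cell types' markers in the results on receptors was not tested.

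The receptor genes fell into distinct patterns over the 5 populations, shown in the plot of levels by library. tlr21 and tlr2 were found in both mpeg1 reporter populations and were near or at 0 counts in keratinocytes, neutrophils and T cells. tlr18 stood out in MLCs, tlr5b was found in neutrophils and cLCs, and tmem173 in keratinocytes and cLCs. Of the 8 member rows that passed the filter on low counts, 5 differed among the 5 groups by edgeR's quasi-likelihood test (adjusted p under 0.05): tmem173 (adjusted p = 0.000457), tlr21 (0.000903), tlr2 (0.00647), tlr18 (0.0136) and tlr5b (0.0246). The background was 16.0% of all 15247 tested genes. It is given for scale only, because the members were chosen with earlier results of these data known. tlr3 (adjusted p = 0.109), tlr1 (0.127) and myd88 (1.00) did not pass, and tlr9 and both tlr7 rows were too low to be tested. The tlr5b call was lost without neutrophil replicate 2 (adjusted p = 0.0782) and by limma on log2(TPM + 1) or log2(TPM + 0.1) (0.0534 and 0.0809). tlr1 was called without neutrophil replicate 1 (0.0192), by DESeq2 (0.0493) and by limma (0.0334 and 0.0258). In such bulk libraries, fewer cells that express a gene and less of its RNA per cell cannot be told apart.

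**Figure D1:**
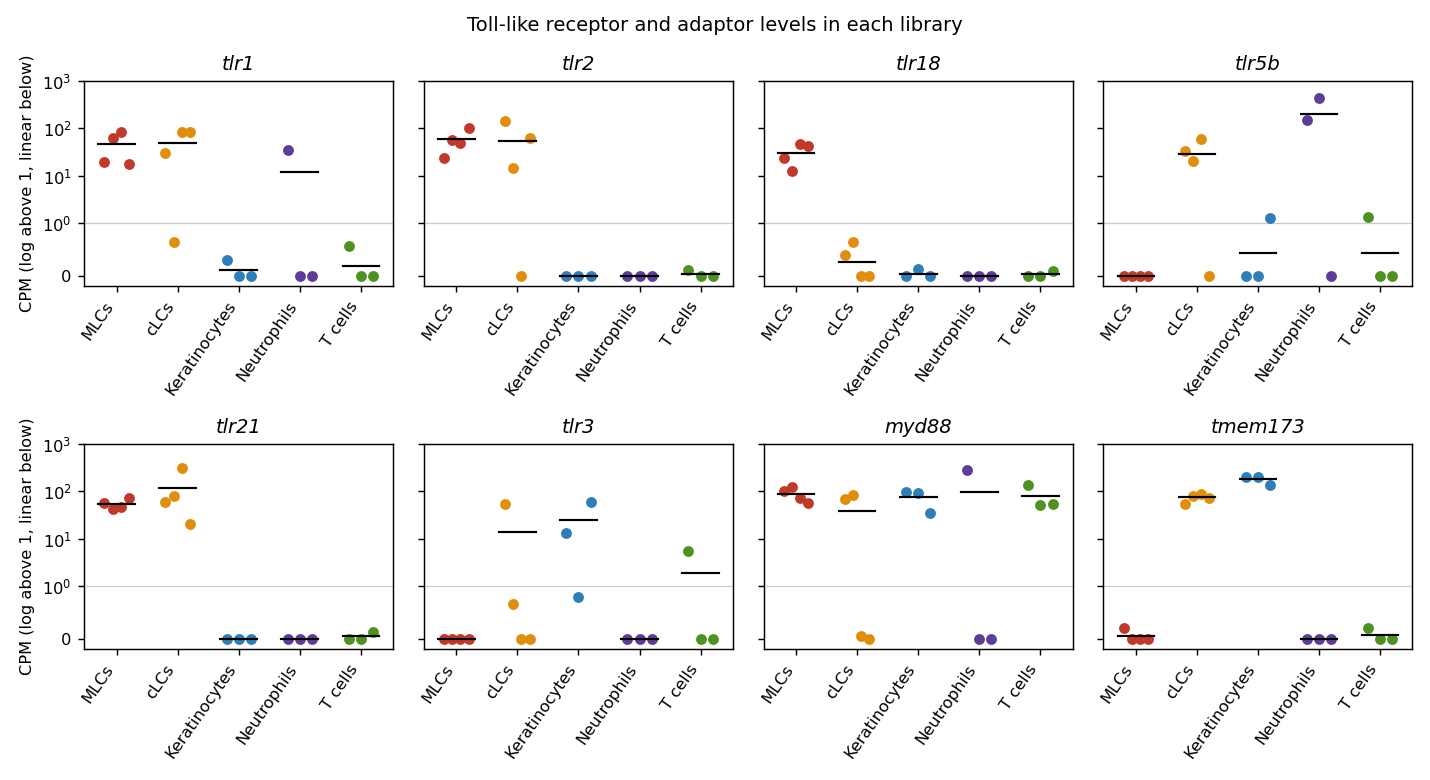
Level of the 8 tested members in each of the 17 libraries, in CPM on an axis that is logarithmic above 1 and linear below. Points are libraries in replicate order from left to right and black lines are group means; the 4 MLC libraries of tlr18 sit between 12.4 and 45.9 CPM while no other library passes 0.650 CPM.

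tlr2 encodes a cell surface receptor that in mammals binds bacterial lipopeptides as a dimer with TLR1 or TLR6. Its levels in the 4 MLC libraries were 23.4, 58.2, 49.8 and 102 CPM, and in the 4 cLC libraries 144, 14.3, 0 and 63.2 CPM. All keratinocyte and neutrophil libraries had 0 counts, and the T cell libraries had 2 counts in all. Both mpeg1 reporter populations thus carried tlr2, apart from cLCs replicate 3, which had none. Means were 58.4 ± 32.8 CPM in MLCs and 55.4 ± 65.0 CPM in cLCs (SD, n = 4 each). The log2 fold change of MLCs over cLCs was 0.08, with a 95% interval from -3.93 to 4.08, too wide to show similar levels. The mean in MLCs was at least 723-fold that in keratinocytes and at least 1235-fold that in neutrophils, each taken against a floor of 3 counts over the group. Neither pairwise test passed in edgeR (adjusted p = 0.0794 and 0.062), nor did that of MLCs against T cells (0.141). Of 8 other settings tried, 6 called tlr2 against keratinocytes, 6 against neutrophils and 4 against T cells. The adjusted p in these 3 comparisons was 5.66e-05, 9.85e-06 and 0.00018 by DESeq2. By limma on log2(TPM + 1) it was 0.0131, 0.0189 and 0.0138. Over all genes DESeq2 called 2068, 2708 and 1429. In RefSeq's annotation of another zebrafish assembly tlr2 overlaps socs1b, a cytokine signalling inhibitor gene, and reads of overlapping genes cannot be told apart here. socs1b lay at 0 to 31.3 CPM in MLCs and 0 to 7.69 CPM in cLCs. It lay at 3.15 to 15.2 CPM in T cells, 0 to 4.84 CPM in keratinocytes and 0 to 2.33 CPM in neutrophils.

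tlr1 encodes the partner that in mammals narrows the lipopeptides TLR2 can bind. Its MLC libraries had 19.8, 63.6, 82.8 and 17.8 CPM and its cLC libraries 30.9, 0.650, 82.8 and 82.7 CPM. Among the other libraries, neutrophil replicate 1 had 35.7 CPM, T cell replicate 1 had 0.560 CPM, keratinocyte replicate 1 had 0.308 CPM and the rest had 0. The mpeg1 reporter groups therefore overlapped with each other and with neutrophils, and lay above all keratinocyte and T cell libraries. Means were 49.2 ± 40.6 CPM in cLCs and 46.0 ± 32.4 CPM in MLCs, a log2 fold change of MLCs over cLCs of -0.10 (95% interval -4.51 to 4.31). No pairwise difference of tlr1 passed in edgeR.

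tlr18 encodes a fish receptor related to the TLR1 and TLR2 group. It had 23.4, 12.4, 45.9 and 42.0 CPM in the 4 MLC libraries. In cLCs it had 0.388, 0.650, 0 and 0 CPM, which is 8 counts in all. Elsewhere 1 count was found in keratinocytes, 2 in T cells and 0 in neutrophils, so every MLC library lay above every other library. In MLCs against cLCs the log2 fold change was 6.89 ± 2.78 (SE; 95% interval 1.096 to 12.69), and this did not pass in edgeR (adjusted p = 0.314). DESeq2 called it (adjusted p = 0.00407), as did limma on log2(TPM + 1) (0.000208) and on log2(TPM + 0.1) (8.52e-05). These were the only 3 of 8 other settings to do so, and the highest adjusted p of the 8 was 0.485. None of the 17 fits with 1 library left out called it. Against neutrophils the mean in MLCs was at least 654-fold higher than the floor of 3 counts over the group, with an edgeR adjusted p of 0.0929. In RefSeq a long noncoding RNA gene overlaps tlr18, so some of its reads may not be its own.

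tlr5b encodes one of the paired zebrafish receptors for flagellin, the protein of bacterial flagella. The neutrophil libraries had 151, 445 and 0 CPM and the cLC libraries 32.8, 21.0, 60.8 and 0 CPM. No MLC library had a single count, keratinocyte replicate 3 had 1.30 CPM, T cell replicate 1 had 1.32 CPM, and the remaining keratinocyte and T cell libraries had 0. The gene was thus present in 3 of 4 cLC and 2 of 3 neutrophil libraries, and the libraries of these groups without it, cLCs replicate 4 and neutrophil replicate 3, were those with the fewest genes detected. Neutrophils had a mean of 199 ± 227 CPM and cLCs 28.7 ± 25.4 CPM, which did not pass a test of their difference (log2 fold change of cLCs over neutrophils -2.79, 95% interval -7.96 to 2.37, adjusted p = 0.594). MLCs lay at least 3349-fold below the neutrophil mean (adjusted p = 0.0591) and at least 483-fold below the cLC mean (0.211), against the floor of 3 counts over the MLC libraries. These bounds were 1270-fold without neutrophil replicate 2 and 302-fold without cLCs replicate 3. Of 8 other settings tried, 6 called MLCs against neutrophils and 2 called MLCs against cLCs. With 1 library left out, 4 of 17 fits called the first and 0 the second. RefSeq places mia3, a secretory pathway gene, across tlr5b in another assembly. mia3 had 6.76 to 111 CPM in MLCs, where tlr5b was at 0.

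tlr21 encodes a receptor that in fish and birds responds to unmethylated CpG DNA, the role held by TLR9 in mammals. Its levels were 57.3, 42.3, 45.9 and 71.5 CPM in MLCs and 58.6, 79.3, 304 and 20.03 CPM in cLCs. All 6 keratinocyte and neutrophil libraries had 0 counts and T cell replicate 3 alone had 3 counts among the T cells. All 8 libraries of the mpeg1 reporter line therefore lay above the other 9, as mpeg1.1 itself did. MLCs averaged 54.3 ± 13.2 CPM, with the lowest coefficient of variation (24.3%) of the 5 members with a mean over 1 CPM in that group, and cLCs 116 ± 128 CPM, with most of that spread from replicate 3.

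tlr21 was called in 4 pairwise comparisons. It was higher in MLCs than in keratinocytes by at least 672-fold (edgeR adjusted p = 0.027) and than in neutrophils by at least 1147-fold (0.0252), and higher in cLCs than in keratinocytes by at least 1431-fold (0.015) and than in neutrophils by at least 2444-fold (0.0244). Without cLCs replicate 3 the last 2 bounds were 652-fold and 1113-fold. The bounds over neutrophils do not cover loss of transcripts in the neutrophil libraries of fewer than 6000 genes. The adjusted p against T cells was 0.0664 for MLCs and 0.0961 for cLCs. Of 8 other settings tried, 7 called MLCs against T cells, as did 2 of 17 fits with 1 library left out. Some other settings, DESeq2 among them (4.42e-08), called cLCs against T cells, and some did not. The call of MLCs over keratinocytes was lost without MLCs replicate 2 (0.0557), 3 (0.0515) or 4 (0.0527) and without keratinocyte replicate 1 (0.146), 2 (0.136) or 3 (0.124). That over neutrophils was lost without neutrophil replicate 1 (0.0625), 2 (0.101) or 3 (0.0806). Without the 4 low libraries, those of fewer than 6000 genes, only neutrophil replicate 1 remains in its group. No call against neutrophils is taken from that fit. The call of cLCs over keratinocytes was lost without keratinocyte replicate 1 (0.0852), 2 (0.0805) or 3 (0.0733). That of cLCs over neutrophils was lost without cLCs replicate 2 (0.0558) or neutrophil replicate 1 (0.06), 2 (0.121) or 3 (0.0889).

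tlr3 encodes the endosomal receptor for double-stranded RNA. Keratinocytes had 13.3, 0.785 and 58.6 CPM and cLCs 53.7, 0.650, 0 and 0 CPM. T cell replicate 1 had 5.55 CPM, and all MLC, all neutrophil and the remaining T cell libraries had 0. Every keratinocyte library held tlr3 reads, while in cLCs and T cells a single library carried nearly all of them. Keratinocytes averaged 24.2 ± 30.4 CPM, at least 408-fold above the MLC floor (119-fold without keratinocyte replicate 3), but the pairwise test did not pass in edgeR (adjusted p = 0.181). DESeq2 called that difference (1.54e-09), but it was the only 1 of 8 other settings to do so. None of the 17 fits with 1 library left out called it.

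tlr9 and tlr7 had few counts in any library. tlr9, which encodes the CpG DNA receptor shared with mammals, had 37 counts (4.01 CPM) in cLCs replicate 2, 1 count in T cell replicate 3 and 0 in the other 15 libraries. tlr7 encodes a receptor for single-stranded RNA. Its row ENSDARG00000075685 had 15 counts over MLCs, 8 over cLCs and 0 elsewhere, and its row ENSDARG00000068812 had 1 count, in cLCs replicate 1. A count of 0 in a group allows a mean of up to 0.0593 CPM in MLCs, 0.0548 in cLCs, 0.0808 in keratinocytes, 0.0473 in neutrophils and 0.0496 in T cells, counting error only. The reads of near-identical receptor copies may be split or lost in counting, which makes the values of tlr7 uncertain.

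myd88 was the member found in all 5 populations. It had 99.7, 122, 70.3 and 56.1 CPM in MLCs, 97.9, 90.4 and 34.8 CPM in keratinocytes and 132, 51.9 and 54.5 CPM in T cells. In cLCs it had 69.7, 81.4, 0.0524 and 0 CPM and in neutrophils 281, 0 and 0 CPM. All 4 libraries with at most 1 count of myd88 were the 4 with fewer than 6000 genes, and the other 13 lay between 34.8 and 281 CPM. No pairwise test of myd88 passed, and the log2 fold change of MLCs over keratinocytes was 0.23 with a 95% interval from -4.26 to 4.71. In order of mean the groups were neutrophils (93.7 ± 162 CPM), MLCs (87.1 ± 29.6), T cells (79.6 ± 45.8), keratinocytes (74.3 ± 34.5) and cLCs (37.8 ± 43.8), and every neighbouring pair overlapped.

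tmem173, the STING gene, had the smallest adjusted p of the 8 tested members in the test among the 5 groups. Keratinocytes had 199.6, 197 and 135 CPM and cLCs 52.8, 80.6, 88.6 and 72.9 CPM. MLCs had a single count among 4 libraries, T cells had 4 counts and neutrophils had 0. The 2 populations of the mpeg1 reporter line did not overlap: all 4 cLC libraries, including those with fewer than 6000 genes, lay above 52 CPM and all MLC libraries at or below 0.1997 CPM. In CPM keratinocytes lay above cLCs in every library (177 ± 36.4 against 73.7 ± 15.4 CPM), though this difference did not pass in edgeR (log2 fold change of cLCs over keratinocytes -1.27, 95% interval -4.61 to 2.07, adjusted p = 0.756). In the deposited TPM the groups overlapped, at 117 to 202 in keratinocytes and 40.5 to 141 in cLCs.

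tmem173 was lower in MLCs than in keratinocytes, with a log2 fold change of -12.13 ± 2.44 (SE) and an adjusted p of 0.0109 in edgeR, a call kept whichever library was left out. Its MLC mean, a single count at 0.0499 CPM, lay under the MLC floor of 0.0593 CPM. The size of this fold change is therefore not well determined. tmem173 was higher in keratinocytes than in neutrophils by at least 3753-fold (adjusted p = 0.00696) and than in T cells by a log2 fold change of 11.19 ± 2.65 (SE; 0.0222). The call over T cells was lost without keratinocyte replicate 1 (0.0636), 2 (0.0654) or 3 (0.0512) and without T cell replicate 2 (0.135) or 3 (0.137). It was also higher in cLCs than in neutrophils, by at least 1559-fold (0.0228). That call was lost without cLCs replicate 2 (0.0525) or neutrophil replicate 1 (0.0574), 2 (0.114) or 3 (0.0823). Both bounds over neutrophils leave loss of transcripts in the low neutrophil libraries uncovered. The summed keratinocyte markers were 3100 to 7043 CPM in MLCs and 4.40 to 129 CPM in cLCs, and their part in the tmem173 values was not tested. The gene mb21d1, which encodes cGAS and was chosen for its place upstream of STING after its values were seen, had means of 270.2 ± 148 CPM in keratinocytes, 54.8 ± 62.2 CPM in cLCs and 11.4 ± 8.98 CPM in MLCs, and did not pass among the 5 groups (adjusted p = 0.314).

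Between MLCs and cLCs no member was called by edgeR, where the background was 0.171% of tested genes, and 4 members had an unadjusted p under 0.05. The share of all genes at that unadjusted level was not counted. The member nearest the threshold was tmem173, at a log2 fold change of -10.87 ± 2.33 (SE; 95% interval -15.72 to -6.02) and an adjusted p of 0.0643. Its MLC mean of 0.0499 CPM lay under the MLC floor of 0.0593 CPM, so the size of this fold change is not well determined. With 1 library left out tmem173 passed in 3 of 17 fits, those without neutrophil replicate 1 (0.0448), 2 (0.0436) or 3 (0.0313). The highest adjusted p of the 17 was 0.265. It passed under all 8 other settings tried, at adjusted p values from 8.73e-09 (DESeq2) to 0.0443 (another scaling). DESeq2 called 4 members, namely tlr18, tlr3, tlr5b and tmem173, and limma called tlr18 and tmem173 at either pseudocount. Over all genes DESeq2 called 1074, and limma 1224 and 1099 with pseudocounts of 1 and 0.1. The receptors found in both groups, tlr1, tlr2 and tlr21, had log2 fold changes between -1.09 and 0.08, and their 95% intervals spanned at least 6 log2 units, so similar levels are not shown by these tests. The median log2 fold change over the 8 tested members was -0.59, beside 0.13 over all tested genes.

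**Figure D2:**
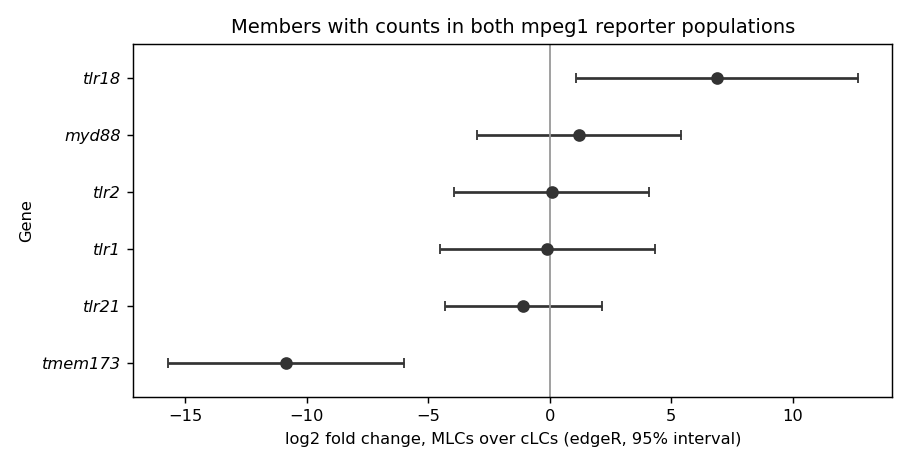
log2 fold change of MLCs over cLCs in edgeR, with 95% intervals, for the 6 tested members that had counts in both groups. The intervals were derived from each test's F statistic and restate its unadjusted p. The intervals of tmem173 (-15.72 to -6.02) and tlr18 (1.096 to 12.69) lie clear of 0 before adjustment over all genes, and the other 4 cross it.

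In the remaining comparisons the members called were those named above. Of 8 tested members, MLCs against keratinocytes gave 2 (tlr21 higher and tmem173 lower in MLCs), beside a background of 1.91% of genes, and MLCs against neutrophils gave 1 (background 1.90%). MLCs against T cells gave 0 in edgeR (background 1.21%), where 5 members were under 0.05 before adjustment, DESeq2 called 6 and limma 3 or 4 depending on the pseudocount. Over all genes DESeq2 called 1429 in that comparison, and limma 2014 and 1676. cLCs gave 1 against keratinocytes (background 3.37%), 2 against neutrophils (0.859%) and 0 against T cells (0.203%), the last with 4 members under 0.05 before adjustment, where DESeq2 called 4 and limma 2. Keratinocytes gave 1 against neutrophils (4.85%) and 1 against T cells (3.33%). Neutrophils against T cells gave 0 (0.105%), with 1 member under 0.05 before adjustment, where DESeq2 called 2 and limma 0. The share of all genes under 0.05 before adjustment was not counted. Totals over all genes by DESeq2 and limma are not given for cLCs or neutrophils against T cells. Member counts without such a share cannot be set against all genes. Comparisons with a group in common share its libraries, so the counts of members called are not independent.

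Levels of different genes were compared in TPM (a transcript abundance that the authors scaled for gene length and library size). In MLCs the order of mean TPM was myd88 (80.3 ± 21.1), tlr21 (24.9 ± 6.51), tlr1 (20.22 ± 16.1), tlr2 (17.7 ± 9.63) and tlr18 (6.57 ± 3.91), and no other member exceeded a mean of 0.103 TPM. In cLCs tmem173 (86.3 ± 49.8 TPM) and tlr21 (79.0 ± 115) came first, then tlr1 (35.4 ± 33.3), myd88 (27.8 ± 33.5), tlr2 (20.8 ± 23.0), tlr5b (10.3 ± 13.1) and tlr3 (6.16 ± 12.2). Keratinocytes carried tmem173 (161 ± 42.7 TPM), myd88 (72.6 ± 37.4) and tlr3 (10.8 ± 12.9), and no other member exceeded a mean of 0.112 TPM. Neutrophils carried myd88, tlr5b and tlr1, each missing from at least 1 of 3 libraries. In T cells myd88 reached 127 ± 64.0 TPM and tlr3 1.32 ± 2.28, with all other members under 0.2 TPM.

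Each of the 4 MLC libraries had exactly the same 5 member rows at 1 CPM or more, which were tlr1, tlr2, tlr18, tlr21 and myd88. The number was 4 to 7 in cLC libraries, 2 to 4 in keratinocytes, 0 to 3 in neutrophils and 1 to 3 in T cells. Among members with a mean over 1 CPM, the coefficient of variation between libraries had a median of 51.1% over 5 members in MLCs, 114% over 8 in cLCs, 46.4% over 3 in keratinocytes, 173% over 3 in neutrophils and 115% over 2 in T cells. Genes detected ranged from 8972 to 15684 in MLCs and from 4484 to 16200 in cLCs, and the part of this in the uneven values was not tested.

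**Figure D3:**
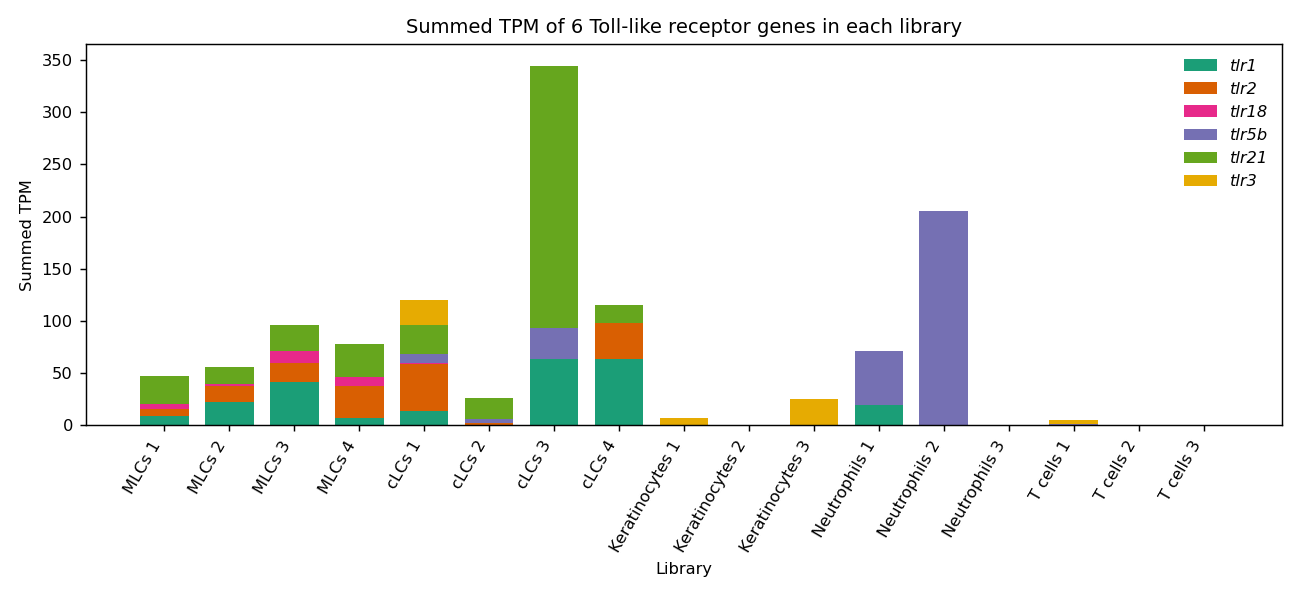
Summed TPM of 6 receptor genes among the members in each library, with bars starting at 0 and stacked by gene. tlr21 fills most of cLCs replicate 3 (251 TPM), tlr5b fills neutrophil replicate 2 (205 TPM), and the keratinocyte and T cell bars are short, at most 25.6 TPM.

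Receptors outside the members were more abundant in the mpeg1 reporter libraries. Over all 20 rows with a tlr symbol the summed level was 374 to 640 TPM in MLCs, 223 to 1690 TPM in cLCs, 85.5 to 215 TPM in neutrophils, 0.352 to 39.8 TPM in keratinocytes and 0.164 to 14.2 TPM in T cells. tlr8b, a relative of the mammalian receptor for single-stranded RNA, was the highest receptor in 2 of 4 MLC and 3 of 4 cLC libraries, at up to 405 and 1109 TPM. In keratinocytes tlr3 was the highest receptor in all 3 libraries, but in replicate 2 it was at 0.327 TPM and 0 receptor rows reached 1 CPM. In neutrophils it was tlr5b in 2 libraries and tlr22 in the third.

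Of 11 other receptor rows in the list of pathway genes, 7 were tested and 5 differed among the groups (the share of all tested genes was 16.0%). These were tlr8b (edgeR adjusted p = 8.1e-05), tlr4bb (0.000846), tlr4al (0.000969), tlr8a (0.0175) and tlr4ba (0.0412). This list and the other pathway lists were chosen with earlier results of these data known, so the 16.0% is given for scale only. The tlr4 genes are relatives of the mammalian lipopolysaccharide receptor gene. tlr4al had 247 ± 95.6 CPM in MLCs, 2.12 ± 2.45 CPM in cLCs and 0 in the other 3 groups, and tlr4bb had 87.1 ± 40.6 and 72.7 ± 58.1 CPM in the mpeg1 reporter groups and at most 0.017 CPM on average elsewhere. In MLCs, tlr8b, tlr4bb and tlr4al were each called higher than in keratinocytes, neutrophils and T cells, and in cLCs tlr8b and tlr4bb higher than in keratinocytes. Between MLCs and cLCs 0 of 7 passed in edgeR, with 2 at an unadjusted p under 0.05 (share of all genes not counted), and tlr4al had an adjusted p of 0.241. The tlr4ba call was lost when any of 12 libraries was left out (adjusted p from 0.0522 to 0.113), the highest being without MLCs replicate 3. That of tlr8a was lost without the 4 libraries of fewer than 6000 genes (0.13) and by limma on log2(TPM + 1) (0.128). Reads may be shared among the tlr4 and tlr8 copies.

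The pairwise calls of these receptors rested on few libraries. tlr4bb lost its call over keratinocytes in MLCs without keratinocyte replicate 1 (0.126), 2 (0.127) or 3 (0.111) or MLCs replicate 3 (0.0528) or 4 (0.0509), and in cLCs without keratinocyte replicate 1 (0.102), 2 (0.0929) or 3 (0.0854). tlr4al lost its calls without any MLC library, at adjusted p values of 0.0529 to 0.0965 over the 3 comparisons, and without any library of the group compared with (0.0683 to 0.161). tlr8b lost its call over keratinocytes without keratinocyte replicate 2 (0.054) or 3 (0.0509) and over T cells without T cell replicate 2 (0.0761) or 3 (0.0748). tlr4bb lost its call over neutrophils without neutrophil replicate 1 (0.0571), 2 (0.0948) or 3 (0.0721). It lost that over T cells without any MLC (0.0783 to 0.0919) or T cell library (0.102 to 0.263). Leaving out cLCs replicate 1 or 2 also lost calls of tlr4al over keratinocytes (0.0521 and 0.0518) and T cells (0.0543 and 0.0551), and of tlr4bb over T cells (0.0595 without replicate 2).

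Among receptor chaperones and co-receptors, 2 of 10 tested genes differed among the groups, near the 16.0% of all tested genes. cd180, which encodes a leucine-rich repeat relative of TLR4, had 229 ± 68.3 CPM in MLCs, 153 ± 78.3 CPM in cLCs and at most 0.017 CPM on average elsewhere (adjusted p = 9.7e-05). ly86, the gene of the protein that pairs with CD180 in mammals, had 55.5 ± 32.4 CPM in MLCs, 12.0 ± 22.7 CPM in cLCs and 0 elsewhere (0.0139). Of 16 tested kinase and ligase genes downstream of MyD88, 1 differed beside the same background, peli1a, a ubiquitin ligase gene at 47.4 ± 54.8 CPM in cLCs and 0 in MLCs (0.0231; 0.0645 without cLCs replicate 2). Of 14 NF-kB subunit and brake genes 2 differed, also near that share, cyldb (0.0122) and nfkbiaa (0.0174). nfkbiaa, which encodes an inhibitor that holds NF-kB in the cytosol, had 1817 ± 993 CPM in cLCs and 217 ± 66.1 CPM in MLCs, and its call was lost without MLCs replicate 4 (0.0503), cLCs replicate 2 (0.0561) or T cell replicate 2 (0.0544) or 3 (0.0567), or with no filter on low counts (0.0738).

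**Figure D4:**
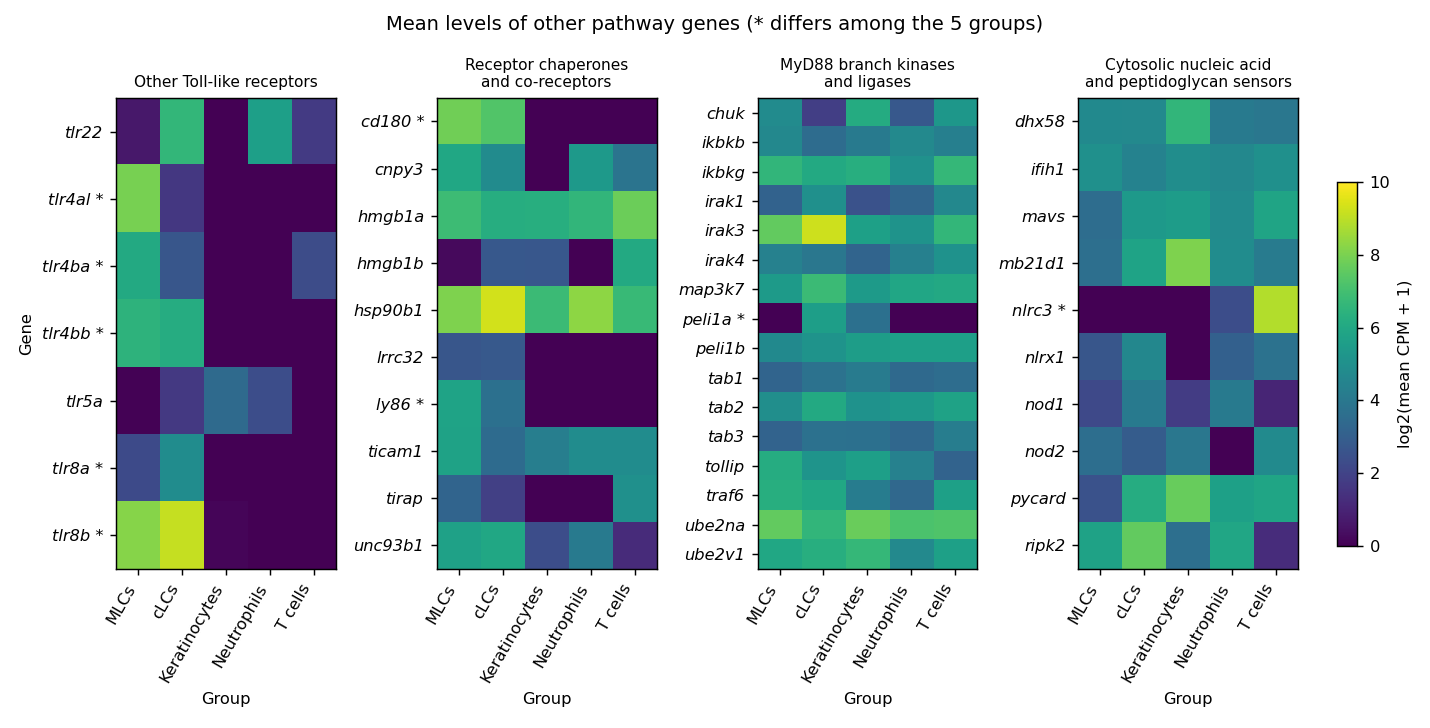
Mean level of the tested genes of 4 pathway lists in each group, as log2(mean CPM + 1), from 0 (dark) to 10 (light). Stars mark genes that differ among the 5 groups in edgeR: 5 of 7 other receptors, 2 of 10 chaperones and co-receptors, 1 of 16 MyD88 branch genes and 1 of 10 cytosolic sensors.

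Of 15 interferon branch genes 4 differed among the groups, beside 16.0% of all tested genes, namely irf8, irf7, irf1a and mxb. irf8, a transcription factor gene of macrophages and dendritic cells, had 149 ± 99.4 CPM in cLCs and at most 0.0999 CPM on average elsewhere (adjusted p = 0.000564). irf7, which encodes a factor that switches on interferon genes, had 1189 ± 1028 CPM in keratinocytes and 694 ± 94.3 CPM in MLCs against 162 ± 60.9 CPM in cLCs (0.0203; 0.114 without keratinocyte replicate 2 0.0507 without T cell replicate 3, and 0.0539 with no filter on low counts). The mxb call was lost when any of 13 libraries was left out (0.0551 to 0.0996), without the 4 libraries of fewer than 6000 genes (0.0572) and by limma on log2(TPM + 1) (0.0847). Of 10 cytosolic sensors 1 differed, nlrc3, at 457 ± 26.4 CPM in T cells, 4.10 ± 7.11 CPM in neutrophils and 0 in the other groups (0.00133).

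Of 14 inflammatory output genes 8 differed among the groups, beside the same 16.0%, the 4 with the smallest adjusted p being il12bb (0.000306), il1b (0.000881), tnfb (0.00151) and ptgs2a (0.0024). il12bb, a gene of the shared subunit of interleukins 12 and 23, had 1338 ± 747 CPM in MLCs and 82.3 ± 94.0 CPM in cLCs. il1b, the interleukin 1 beta gene, was highest in neutrophils and ptgs2a, a prostaglandin synthase gene, in keratinocytes. tnfb, a tumour necrosis factor gene, had 223 ± 35.2 CPM in MLCs, 570 ± 376 CPM in cLCs and 0.0855 ± 0.148 CPM in keratinocytes. No gene of the 7 pathway lists passed in MLCs against cLCs by edgeR, and 17 had an unadjusted p under 0.05 (share of all genes not counted).

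For each tested member the 3 genes with the most similar pattern over the 17 libraries were found by Pearson's r of log2(CPM + 1), given as a description because the libraries share groups and depth. tlr21 was most like cd180 (r = 0.978, Spearman's rho 0.824), tlr8b (0.976 and 0.878) and mpeg1.1 (0.963 and 0.827). tlr2 was most like grn1 (0.95), il12bb (0.947) and akt3a (0.941), and tlr18 like tex30 (0.991), plekho1a (0.991) and bmpr1bb (0.99), which like tlr18 were near 0 outside MLCs. tlr5b was most like gpr84 (0.987), metrnla (0.97) and slc2a6 (0.956), and tmem173 like cd82a (0.972), fxyd6l (0.961) and anxa2a (0.948). tlr3 was most like bnip3 (0.914), arhgap20 (0.891) and rnd3b (0.884), tlr1 like mtdha (0.845), calhm6 (0.837) and ptk6b (0.824), and myd88 like eif4e3 (0.971), cbx5 (0.97) and rbm15 (0.964). For myd88, which was near 0 in 4 libraries, rho was 0.714 to 0.776.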

How the data were processed

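Hand-picked adult zebrafish epidermal cells were amplified with SMART-seq2 and sequenced as 2x150 paired reads. Per the submitters' processing notes the tools were STAR and featureCounts and the build danRer10, with versions, annotation and strandedness not given in the sources used here. The authors deposited a table of raw read counts per gene and a table of TPM. Each has 35572 lines, 455 repeating an identifier with the same values, which were dropped.

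Counts were fitted with edgeR 4.0.16 in R 4.3.3 (TMM, low-count filter by group, 15247 genes kept, quasi-likelihood fit of all 17 libraries by group, Benjamini-Hochberg adjustment over all tested genes; common coefficient of variation 2.03, 12 residual degrees of freedom). CPM use TMM-scaled totals; values are mean ± SD. Folds against a group at 0 use 3 counts over that group. These floors cover counting error only, since amplified reads lacking molecular identifiers are not independent. They do not cover loss of transcripts in libraries with few genes detected. The steps were also run on simulated counts with changes set between MLCs and cLCs only. That simulation did not model libraries with few genes detected, and its outcome is not given here. DESeq2 1.42.0 and limma 3.58.1 on log2 TPM were alternatives.

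Labels give the groups, and the series design names independent experiments as the source of replicates. The members and the 13 lists of other genes (143 of 158 symbols matched) were chosen with earlier results of these data known. All members are named; from each list, up to 4 genes per comparison with the smallest adjusted p, and the 3 genes most like each member.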

Additional observations from a re-analysis of the deposited data

Results flagged for a closer look

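In groups of 4 libraries, 14 member values with more than 10 counts over the group were tested for a library standing apart by Dixon's criterion. Of these, 2 were past it, at ratios of gap to range of 0.988 (tlr3) and 1.0 (tlr9). The criterion's rate of about 1 in 20 assumes normally distributed values. It does not hold here, because libraries at or near 0 put the ratio near 1. tlr3 was 53.7 CPM in cLCs replicate 1, against 0.650, 0 and 0 CPM in the other cLC libraries. tlr9 was 4.01 CPM in cLCs replicate 2, against 0 in the others.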

How the results depend on the processing

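The number of members called differed as follows. In MLCs against cLCs, 0 became 1 with RLE scaling, 4 with DESeq2, 2 with no filter on low counts, 1 with at least 10 CPM in 3 libraries, 2 by limma on log2(TPM + 1), 2 on log2(TPM + 0.1), 1 with the replicate block and 1 without the 4 libraries of fewer than 6000 genes, a setting chosen after seeing the data. In MLCs against keratinocytes, 2 became 7 with DESeq2, 4 and 5 by limma with pseudocounts of 1 and 0.1, and 4 without the 4 low libraries. In MLCs against neutrophils, 1 became 2 with RLE scaling, 4 with DESeq2, 3 with no filter and 3 with the 10 CPM filter. It became 4 and 3 by limma and 3 with the replicate block. Without the 4 low libraries only neutrophil replicate 1 was left in its group, so no count is given for that comparison. The 5-group test of that fit also has neutrophil replicate 1 alone for its group. In MLCs against T cells, 0 became 6 with DESeq2, 1 with no filter, 1 with the 10 CPM filter, 3 and 4 by limma, 1 with the replicate block and 3 without the 4 low libraries. In cLCs against keratinocytes, 1 became 3 with DESeq2, 2 with no filter, 2 with the 10 CPM filter, 3 by limma with a pseudocount of 0.1 and 2 without the 4 low libraries. The cause was not tested. The difference among the 5 groups gave 5 to 7 members under all these settings, and tlr5b was not called by limma (0.0534 and 0.0809). The 7 came with no filter and with the replicate block. Over all genes that test called 2444 in the main fit, 4094 with no filter, 3058 with the block and 2811 by DESeq2. It called 4581 and 4155 by limma, 2677 with RLE scaling, 1978 with the 10 CPM filter and 2418 without the 4 low libraries. Leaving out 1 library at a time gave 4 to 6 members for the 5 groups, 0 to 1 for MLCs against cLCs, 1 to 3 against keratinocytes, 0 to 3 against neutrophils, 0 to 1 against T cells and 0 to 2 for cLCs against keratinocytes. No result turned its direction in any of these settings. Over all genes, MLCs against cLCs gave 26 calls by edgeR, 1074 by DESeq2, 1224 and 1099 by limma, and 33 with RLE scaling. It gave 322 with no filter, 35 with the 10 CPM filter, 273 with the block, 157 without the low libraries, and 0 to 48 with 1 library left out. The other 4 pairs, in the order above, moved from 291, 290, 184 and 514 calls to 2068, 2708, 1429 and 2720 by DESeq2. Limma gave 1838, 1298, 2014 and 2060 with a pseudocount of 1, and 1711, 1343, 1676 and 1882 with 0.1. With no filter they gave 636, 674, 498 and 947, and with the 10 CPM filter 338, 389, 246 and 674. The block gave 547, 554, 444 and 802, and RLE scaling 327, 354, 227 and 690. Without the low libraries they gave 1070, 784 and 1017, leaving out the pair with neutrophils. Of 31 pairs of same-numbered libraries, 1 deviated together with a correlation over 0.1 (range -0.046 to 0.21). The pairs of MLCs with cLCs were at 0.21, 0.089, 0.032 and 0.049 for replicates 1 to 4. These values do not show whether same-numbered libraries shared an experiment, which the sources used here do not state. The main fit did not use the replicate block. With the block the 5-group calls of nfkbiaa (0.068) and irf7 (0.0599) were lost. Over all tested genes the median log2 fold change was 1.08 in MLCs and 1.00 in cLCs against neutrophils, and -0.09 to 0.30 in the other pairs with MLCs or cLCs.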
